A study of Mus musculus with 24 samples.

Results

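The megalin-cubilin endocytosis genes are 8 genes of a receptor pathway of the renal proximal tubule. They were chosen by name, and were found in the count files through their Ensembl identifiers. They are 8 of the 55335 genes in the files, and all 8 passed the filter on low counts together with the other genes tested, 16092 in all. They are the receptor genes Lrp2 (megalin, ENSMUSG00000027070) and Cubn (cubilin, ENSMUSG00000026726), the membrane anchor Amn (amnionless, ENSMUSG00000021278) and the adaptor Dab2 (ENSMUSG00000022150). The others are the receptor chaperone Lrpap1 (ENSMUSG00000029103), the endosomal exchanger Clcn5 (ENSMUSG00000004317), the lipid phosphatase Ocrl (ENSMUSG00000001173) and the scaffold Pdzk1 (ENSMUSG00000038298).

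The study asked what peroxisomes do in the kidney tubule by deleting Pex5, the receptor that brings most matrix proteins into peroxisomes. RNA of 24 whole kidneys was sequenced, 6 per group, from males and females. Mice of the cKO groups (cKOm for males, cKOf for females) carried Pex5lox/lox, Pax8-rtTA and LC1, where LC1 is a Cre transgene that rtTA switches on in the presence of doxycycline (DOX). Their controls (Ctrlm and Ctrlf) were littermates with Pex5lox/lox alone, so all groups carried the floxed alleles. All groups were of strain C57BL/6J, were given DOX for 2 weeks from an age of 8 weeks, and were studied 4 weeks after DOX ended, with tissue taken at ZT9 (hours after lights on). The Pax8 promoter limits rtTA to the renal tubule within the kidney, while the RNA came from all cells of the organ.

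Megalin and cubilin are large receptors of the apical membrane of proximal tubule cells, where they bind filtered albumin, vitamin carriers, hormones and other proteins. The ligands enter through clathrin-coated pits with the help of Dab2, are released in endosomes that acidify, and are broken down in lysosomes while the receptors return to the surface. Loss of this uptake leads to protein of low molecular weight in the urine, as in Donnai-Barrow syndrome (LRP2), Imerslund-Grasbeck syndrome (CUBN or AMN), Dent disease (CLCN5) and Lowe syndrome (OCRL).

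Levels are given as CPM, counts relative to library size, with TMM scaling. The reads counted on genes ranged from 19376152 to 28470831 per kidney, with medians of 21603949 (Ctrlm), 21528283 (cKOm), 22569484 (Ctrlf) and 20386767 (cKOf). The lowest count of any of the 8 genes in any kidney was 529 (Ocrl), so the spread between mice and not counting error limits the values. Counts were high enough for a difference between groups to be read for every one of these genes.

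Some libraries stood apart. In cKOm replicate 4, 58.45% of reads were counted on a gene and 34.81% aligned to several places, against 63.89 to 65.18% and 27.83 to 29.51% in the other cKOm kidneys. In cKOf replicate 6, 30.48% of reads aligned to several places, against 27.4 to 28.41% in the other cKOf kidneys, and Lrp2, Cubn, Dab2, Clcn5 and Ocrl had their lowest cKOf level there. Ctrlf replicate 5 had 27401081 counted reads, against 20454515 to 22733608 in the other Ctrlf kidneys. Some of the results below are also given without these libraries. Reads aligned to no annotated feature made up 4.58 to 5.98% in Ctrlm and 5.85 to 6.33% in cKOm. In females they were 4.75 to 6.66% in Ctrlf and 4.45 to 6.23% in cKOf. Among Ctrlm kidneys, Lrpap1 and Pdzk1 were highest in replicate 5, with 4.58%, and lowest in replicate 2, with 5.98%. The part of this share in the levels and correlations below was not tested.

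Pex5 itself served as a check of the labels. Its level was 49.1, 53.3 and 62.8 CPM (lowest, median and highest) in Ctrlm and 41.8, 43.0 and 47.3 CPM in cKOm. In females it was 43.0, 48.2 and 61.7 CPM in Ctrlf and 38.0, 44.1 and 48.5 CPM in cKOf. All 6 cKOm kidneys lay below every Ctrlm kidney, while the female ranges overlapped. The log2 fold change was -0.31 in males (SE 0.0822, adjusted p 0.0219, lower in 6 of 6) and -0.21 in females (SE 0.0822, adjusted p 0.177, 5 of 6 below the control median). The interaction of genotype and sex for Pex5 was -0.10 (adjusted p 0.754), and these counts cover the whole gene, not the floxed exon. The male call of Pex5 was lost without Ctrlm replicate 2 or without cKOm replicate 4 (adjusted p up to 0.0656). It was also lost with the mean log2 CPM of hepatocyte markers as a covariate (adjusted p 0.109).

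To compare levels between the genes, CPM was divided by the merged exon length in kb. In Ctrlm the mean was 405.6 CPM per kb for Pdzk1, 155 for Lrp2, 134 for Lrpap1, 105 for Dab2, 39.5 for Cubn, 26.9 for Amn, 10.8 for Clcn5 and 3.73 for Ocrl. On this scale Pdzk1 was rank 56 and Lrp2 rank 188 of 16083 genes with a length, while Ocrl was rank 7776. Neighbours in the Ctrlm order whose ranges overlapped were Lrp2 with Lrpap1, Lrpap1 with Dab2, and Cubn with Amn, and the other neighbours were apart in all kidneys.

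The same order held in Ctrlf and cKOf by mean CPM per kb, with Lrp2 at 210.3 in Ctrlf and 185 in cKOf and Dab2 at 120.4 and 125. In cKOm, Dab2 (143 CPM per kb) stood before Lrp2 (124) and Lrpap1 (110.3), and the ranges of Dab2 and Lrp2 overlapped there. In all groups Pdzk1 was the highest and Ocrl the lowest of the 8, with no overlap with its neighbour. With the length of the longest transcript in place of merged exons, Lrpap1 (185 CPM per kb) stood before Lrp2 (167) and Dab2 (165) in Ctrlm, so the order of these 3 depends on the length used.

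Among the 8 genes in males, 1 rose (Dab2) and 2 fell (Lrp2 and Lrpap1) past an adjusted p of 0.05 in edgeR. Of all tested genes, 9.05% passed in either direction, 4.14% rising and 4.9% falling. The count of 3 fell to 1 without cKOm replicate 3 and with no filter on low counts, and Lrpap1 was lost in 14 of 24 fits that left out 1 kidney. The median log2 fold change of the 8 was -0.15 in males, beside 0.01 over all tested genes, with 3 positive and 5 negative values. In females 0 of 8 passed in edgeR, where 0.851% of all tested genes did (0.391% rising, 0.46% falling), and 1 of 8 (Lrp2) had an unadjusted p under 0.05. DESeq2 and limma-voom also called 0 of 8 in females. The female median was 0.03, beside a value of 0.0019 over all tested genes.

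**Figure D1:**
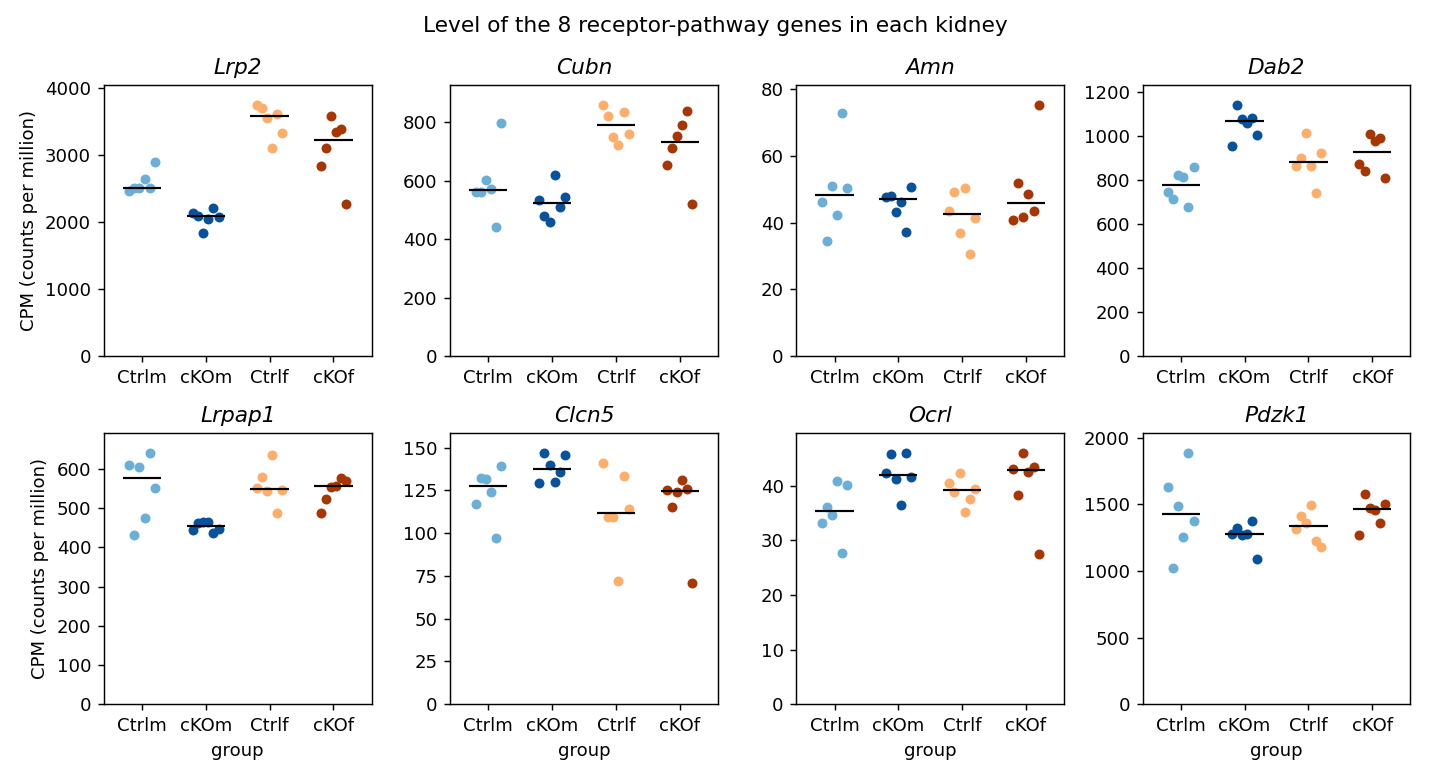
Level of each of the 8 genes in CPM (vertical axis) in the 24 kidneys, by group. Each point is 1 kidney and the bar is the median of 6. All 6 cKOm kidneys lie below every Ctrlm kidney for Lrp2 and above every Ctrlm kidney for Dab2.

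Lrp2 codes for megalin, the receptor that carries most of the internalisation of the pathway. Its level was 2472, 2513 and 2895 CPM (lowest, median and highest) in Ctrlm and 1838, 2085 and 2209.5 CPM in cKOm. It was 3105, 3586 and 3748 CPM in Ctrlf and 2273, 3231 and 3588 CPM in cKOf. The cKOm kidneys were the lowest of all and did not overlap with Ctrlm, and the Ctrlm kidneys lay below all Ctrlf kidneys. In females the ranges overlapped, with 5 of 6 cKOf kidneys below the Ctrlf median and 2 below every Ctrlf kidney.

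In males Lrp2 fell by 0.33 on the log2 scale (SE 0.0844, adjusted p 0.0192, lower in 6 of 6 kidneys). The female difference was -0.18 (SE 0.0843, adjusted p 0.274), and the interaction of genotype and sex was -0.14 (adjusted p 0.654), so a difference between the sexes was not detected. Without cKOm replicate 4 the male value was -0.32 (adjusted p 0.0384), and without cKOf replicate 6 the female value was -0.11 (adjusted p 0.455). The male call was lost without cKOm replicate 3 (adjusted p 0.0605) and with no filter on low counts (adjusted p 0.0540), and was kept with the other 23 kidneys left out in turn and with 8 of 9 other settings. In a whole organ, fewer cells that hold an RNA and less of the RNA per cell cannot be told apart.

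Cubn codes for cubilin, a peripheral membrane receptor that binds albumin and intrinsic factor with vitamin B12 and relies on partners for its entry. Its level was 441, 567 and 799.8 CPM in Ctrlm, 459, 524 and 619 CPM in cKOm, 721, 791 and 859.6 CPM in Ctrlf, and 521, 734 and 841 CPM in cKOf. Within each sex the genotypes overlapped, while 5 of 6 Ctrlm kidneys lay below every Ctrlf kidney. The genotype difference was not past the test in males (log2 fold change -0.17, SE 0.113, adjusted p 0.521, 5 of 6 below the control median) or in females (-0.15, SE 0.113, adjusted p 0.578, 4 of 6). Without cKOf replicate 6 the female value of Cubn was -0.08 (adjusted p 0.773), and without cKOm replicate 4 the male value was -0.22 (adjusted p 0.398). With any kidney left out the male value ran from -0.24 to -0.09.

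Amn codes for amnionless, the transmembrane partner that carries cubilin to the apical surface. Its level was 34.6, 48.4 and 73.0 CPM in Ctrlm, 37.2, 47.0 and 50.6 CPM in cKOm, 30.7, 42.5 and 50.6 CPM in Ctrlf, and 40.9, 46.0 and 75.3 CPM in cKOf. All groups overlapped, and the highest cKOf value came from replicate 6. The log2 fold change was -0.12 in males (SE 0.155, adjusted p 0.782) and 0.26 in females (SE 0.155, adjusted p 0.447), and 0.11 in females without cKOf replicate 6 (adjusted p 0.756). With 1 kidney left out the male value ran from -0.21 to 0.019, and its sign changed without Ctrlm replicate 5.

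Dab2 codes for the adaptor that links the receptor tails to clathrin. Its level was 675, 779.6 and 857 CPM in Ctrlm and 953, 1068 and 1141 CPM in cKOm. It was 741, 882 and 1016 CPM in Ctrlf and 807, 927 and 1011 CPM in cKOf. All 6 cKOm kidneys lay above every Ctrlm kidney, and the female groups overlapped throughout, with 3 of 6 cKOf kidneys above the Ctrlf median.

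In males Dab2 rose by 0.45 on the log2 scale (SE 0.0797, adjusted p 0.000496, higher in 6 of 6 kidneys), which is a ratio of 1.37. The female difference was 0.05 (SE 0.0795, adjusted p 0.830). The interaction was 0.40 (SE 0.113, unadjusted p 0.00154, adjusted p 0.0602) in edgeR and missed the threshold, and it was 0.38 with an adjusted p of 0.0231 in DESeq2, within a range of adjusted p from 0.0231 to 0.177 over the 7 other settings. The male call was kept in all 9 other settings and with each of the 24 kidneys left out in turn, where the log2 fold change ran from 0.41 to 0.48. Without cKOm replicate 4 it was 0.45 (adjusted p 0.00139). The receptor gene Lrp2 and the adaptor gene Dab2 thus differed in opposite directions between cKOm and Ctrlm, also with RLE scaling (-0.35 and 0.43). With group means removed, Pearson's r of their log2 CPM over the 24 kidneys of both sexes was positive (0.4525).

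Lrpap1 codes for the chaperone that keeps newly made megalin from binding ligands in the endoplasmic reticulum. Its level was 432, 578 and 641 CPM in Ctrlm, 436, 456 and 466 CPM in cKOm, 488, 549.8 and 636 CPM in Ctrlf, and 487, 556 and 577 CPM in cKOf. All 6 cKOm kidneys lay below the Ctrlm median, but the ranges overlapped, since 1 Ctrlm kidney lay below all cKOm kidneys. The standard deviation was 82.7 CPM in Ctrlm and 12.3 CPM in cKOm.

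In males Lrpap1 fell by 0.28 on the log2 scale (SE 0.0828, adjusted p 0.0430), beside -0.03 in females (SE 0.0827, adjusted p 0.907) and an interaction of -0.25 (adjusted p 0.348). This call was close to the threshold. It was kept in 4 of 9 other settings (adjusted p 0.00929 to 0.186) and in 10 of 24 fits that left out 1 kidney, and without cKOm replicate 4 the adjusted p was 0.0636. The direction was the same in all of these fits.

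Clcn5 codes for a chloride and proton exchanger of early endosomes. Its level was 97.2, 128 and 139 CPM in Ctrlm, 129, 138 and 147 CPM in cKOm, 72.1, 112 and 141 CPM in Ctrlf, and 71.1, 125 and 131 CPM in cKOf. The ranges overlapped in both sexes, with 3 of 6 cKOm kidneys above every Ctrlm kidney, and the lowest cKOf value was again replicate 6. The log2 fold change was 0.16 in males (adjusted p 0.638, 6 of 6 above the control median) and 0.03 in females (adjusted p 0.957), or 0.13 without cKOf replicate 6 (adjusted p 0.602). The male value of Clcn5 was as low as 0.10 with 1 kidney left out and 0.07 with the hepatocyte covariate.

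Ocrl codes for a phosphatase of inositol lipids on endosomes and clathrin-coated carriers. Its level was 27.6, 35.3 and 40.8 CPM in Ctrlm, 36.4, 42.0 and 46.0 CPM in cKOm, 35.2, 39.1 and 42.3 CPM in Ctrlf, and 27.5, 42.8 and 45.9 CPM in cKOf. In males 5 of 6 cKOm kidneys lay above every Ctrlm kidney, and in females 4 of 6 cKOf kidneys lay above every Ctrlf kidney while replicate 6 lay below all of them. The log2 fold change was 0.26 in males (SE 0.103, unadjusted p 0.0202, adjusted p 0.191), which missed the threshold, and 0.04 in females (adjusted p 0.908). Without cKOf replicate 6 the female value was 0.13 (adjusted p 0.480), and with the hepatocyte covariate the male value was 0.16 (adjusted p 0.667).

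Pdzk1 codes for a scaffold with PDZ domains under the brush border membrane that holds transporters in place. Its level was 1024, 1430.5 and 1885 CPM in Ctrlm, 1093.5, 1277 and 1377 CPM in cKOm, 1179, 1339 and 1498 CPM in Ctrlf, and 1268, 1468 and 1580.2 CPM in cKOf. All 6 cKOm kidneys lay below the Ctrlm median, within the wide Ctrlm range, and 5 of 6 cKOf kidneys lay above the Ctrlf median. Neither difference passed the test (log2 fold change -0.18, adjusted p 0.408 in males, and 0.11, adjusted p 0.669 in females), and the male value ran from -0.26 to -0.09 with 1 kidney left out. The interaction was -0.30 with an unadjusted p of 0.04995 and an adjusted p of 0.373.

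**Figure D2:**
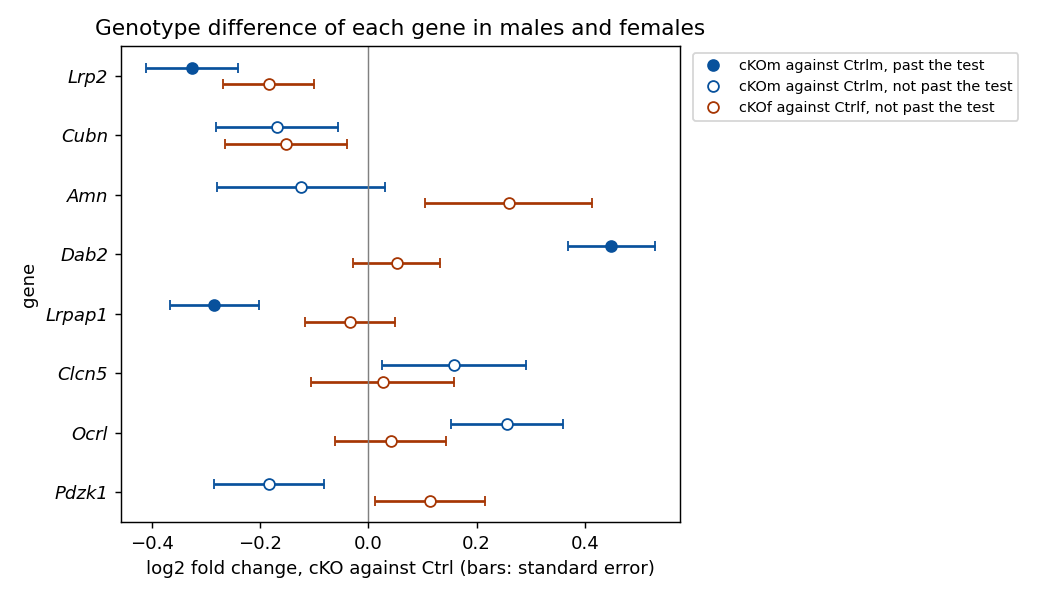
Log2 fold change of cKO against Ctrl (horizontal axis) for each gene in males and females, with bars of 1 standard error and filled points for an adjusted p under 0.05. In males Lrp2 (-0.33) and Lrpap1 (-0.28) lie left of 0 and Dab2 (0.45) right of it, and no female point is filled.

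Counted by ranges in place of the test, 2 of 8 genes separated in males (Lrp2 lower and Dab2 higher), beside 7.38% of all tested genes (3.69% higher and 3.69% lower). In females 0 of 8 separated, beside 0.559% of all tested genes (0.267% higher and 0.292% lower). With any single kidney left out the male count was 2 to 3 and the female count stayed at 0. The number of all tested genes that separated in females ran from 90 to 188 in these fits. Leaving a kidney out cannot make separate ranges overlap, apart from small shifts in scaling, so these counts do not check the separation. For the interaction, 0 of 8 genes passed in edgeR (2.31% of all tested genes did, 0.82% with a positive and 1.49% with a negative value), 3 of 8 had an unadjusted p under 0.05, limma-voom called 0 and DESeq2 called 1, which was Dab2.

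The sex difference asks how these genes stand in males against females of the same genotype. In controls, Lrp2 (log2 fold change -0.44, adjusted p 0.000525, lower in 6 of 6 Ctrlm) and Cubn (-0.42, adjusted p 0.0114, 5 of 6 below every Ctrlf kidney) were lower in males. These are 2 of 8 genes, beside 15.7% of all tested genes in either direction, 8.17% higher and 7.48% lower in males. The Dab2 difference of -0.20 missed the threshold (adjusted p 0.109), and it passed without Ctrlf replicate 5 (-0.22, adjusted p 0.0449).

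Between the cKO groups, Lrp2 (-0.58, adjusted p 1.36e-05, lower in 6 of 6 cKOm), Cubn (-0.44, adjusted p 0.00859, 6 of 6 below the cKOf median) and Lrpap1 (-0.26, adjusted p 0.0336, lower in 6 of 6) were lower in males. They are 3 of 8 genes, beside 9.72% of all tested genes in either direction, 4.8% higher and 4.92% lower in males. By ranges alone, Lrp2 separated Ctrlm from Ctrlf (7.35% of all tested genes did, 3.95% higher and 3.4% lower in males), and Lrp2 and Lrpap1 separated cKOm from cKOf (6.77% did, 3.53% higher and 3.24% lower). The Lrpap1 call between cKO groups was lost in 7 of 24 fits that left out 1 kidney, with an adjusted p of up to 0.0711, for example without cKOf replicate 6 (0.0547). That call was kept in 4 of 6 other settings, and lost with no filter (adjusted p 0.0823) and with the replicate block.

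The ratio of a gene to Lrp2 in the same kidney does not depend on library scaling. The ratio of Dab2 to Lrp2 in CPM was 0.269, 0.299 and 0.329 in Ctrlm and 0.447, 0.503 and 0.586 in cKOm. It was 0.205, 0.260 and 0.285 in Ctrlf and 0.270, 0.292 and 0.355 in cKOf. Every cKOm kidney had a higher ratio than any kidney of the other groups, and in females 4 of 6 cKOf kidneys lay above every Ctrlf kidney.

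Ocrl over Lrp2 was 0.0110, 0.0138 and 0.0154 in Ctrlm against 0.0178, 0.0204 and 0.0224 in cKOm, and 0.0104, 0.0111 and 0.0119 in Ctrlf against 0.0121, 0.0128 and 0.0152 in cKOf. This ratio was higher in every cKO kidney than in every control of the same sex. Clcn5 over Lrp2 was 0.0387, 0.0476 and 0.0526 in Ctrlm and 0.0606, 0.0668 and 0.0761 in cKOm, again without overlap, and it overlapped in females. These are 3 of 7 ratios without overlap in males and 1 of 7 in females. Since Lrp2 itself was lower in cKOm, many genes share this: 23.9% of all other tested genes separated by their ratio to Lrp2 in males (23.1% higher, 0.802% lower) and 1.9% in females (1.84% higher, 0.0621% lower). Between the sexes it was 22.1% in controls (21.2% higher in males, 0.938% lower) and 30.1% in cKO mice (29.7% higher, 0.416% lower).

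The ratio of Lrpap1 to Lrp2 was 0.172, 0.216 and 0.255 in Ctrlm and 0.197, 0.219 and 0.253 in cKOm, with overlap. A difference in this ratio was not tested. Cubn over Lrp2 had medians of 0.225 (Ctrlm), 0.251 (cKOm), 0.229 (Ctrlf) and 0.230 (cKOf), with overlap in both sexes.

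**Figure D3:**
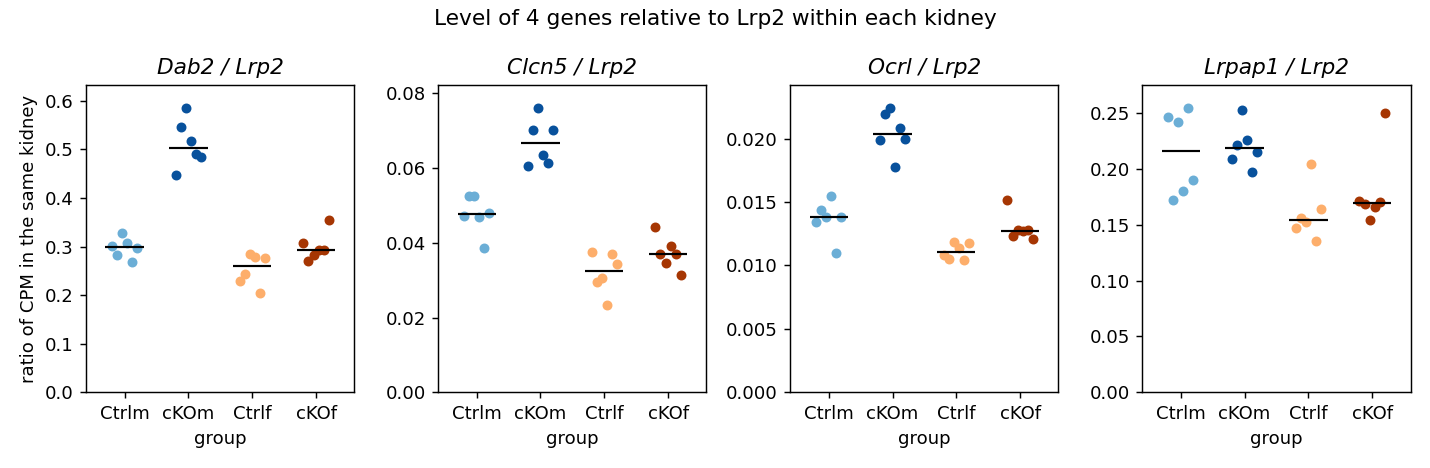
Ratio of the CPM of Dab2, Clcn5, Ocrl and Lrpap1 to that of Lrp2 in the same kidney (vertical axis), by group, with the median of 6 as a bar. The ratio for Dab2 lies between 0.447 and 0.586 in cKOm and between 0.269 and 0.329 in Ctrlm, while the ratio for Lrpap1 overlaps.

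Across the 24 kidneys, Pearson's r of log2 CPM between pairs of the 8 genes ran from -0.627 to 0.892 over 28 pairs, as a description. The points share group, library depth and dissection. With group means removed it ran from -0.702 to 0.813, and 14 of 28 pairs were positive. Lrp2 and Cubn had r 0.892 (0.749 within groups), and Pdzk1 and Lrpap1 had 0.745 (0.813 within groups). Clcn5 and Ocrl had 0.654 (0.744 within groups), and Amn and Ocrl had -0.627 (-0.702 within groups). Within groups, Lrp2, Cubn, Clcn5 and Ocrl had r from 0.594 to 0.749 over their 6 pairs, and Amn had 0.616 with Pdzk1 and 0.711 with Lrpap1. Without cKOf replicate 6, a setting chosen after seeing the data, the 6 pairs had r from 0.382 to 0.633 over 23 kidneys, and Amn and Ocrl had -0.554.

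The genes most like Lrp2 over 24 kidneys were Cubn (r 0.892), C8a (0.876), Xist (0.875), Car5b (0.872) and Slc22a19 (0.871). With group means removed, r with Lrp2 was 0.486 for C8a, 0.402 for Xist, 0.252 for Car5b and 0.171 for Slc22a19, so most of their likeness to Lrp2 lies in the order of the groups. For the other genes the most alike were Lrp2 for Cubn, Bsg for Amn (0.915), Srsf5 for Dab2 (0.889), Birc6 for Clcn5 (0.942), Dock1 for Ocrl (0.923), Erp44 for Pdzk1 (0.880) and Pdia4 for Lrpap1 (0.899). Their values within groups were at least 0.749.

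The steps that surround the receptors were read from lists of genes, each given by its counts and its median log2 fold change beside the 0.01 over all tested genes in males. The counts are to be read against the 9.05% of all tested genes that passed in males (4.14% rising, 4.9% falling) and the 0.851% in females. With 1 kidney left out the male counts ran from 0 to 1 for endosome sorting, 0 to 2 for acidification, 3 to 5 for lysosomal breakdown, 1 to 5 for ligand and vitamin handling and 3 to 6 for partners of Pdzk1. The count for lysosomal breakdown and that for partners of Pdzk1 moved most without Ctrlm replicate 3, and that for ligand and vitamin handling without Ctrlm replicate 3 or cKOf replicate 6. Of 20 genes of the clathrin coat and its adaptors, 0 passed in males in edgeR (1 with an unadjusted p under 0.05, and 0 in limma-voom and DESeq2), with a median of -0.04. Of 34 tested genes of endosome sorting and recycling (Commd5 was not tested), 1 rose in males, with a median of -0.01. That was Appl2, an effector of early endosomes, at 83.0, 85.8 and 102.7 CPM in Ctrlm and 105.1, 117 and 151 CPM in cKOm. All 6 cKOm kidneys lay above every Ctrlm kidney (log2 fold change 0.42, adjusted p 0.0297), and the call was lost in 7 of 24 fits that left out 1 kidney, with the replicate block (adjusted p 0.0578) and with the hepatocyte covariate (0.368).

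Of 21 genes of endosome and lysosome acidification, 1 rose and 1 fell in males, with a median of -0.07, so the share called was close to that of all tested genes. The proton pump subunit Atp6v1b2 had 221, 235 and 303 CPM in Ctrlm and 176, 192 and 198 CPM in cKOm, with no overlap (-0.37, adjusted p 0.0181). Clcn4, a relative of Clcn5, had 105.3, 111 and 120.3 CPM in Ctrlm and 119.9, 132 and 141 CPM in cKOm, with 5 of 6 cKOm kidneys above every Ctrlm kidney (0.24, adjusted p 0.0279). The Clcn4 call was kept in 6 of 9 other settings and 17 of 24 fits with 1 kidney left out, and that of Atp6v1b2 in 8 of 9 and in 23 of 24 (lost without Ctrlm replicate 2, adjusted p 0.0596).

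Of 22 genes of lysosomal breakdown, 1 rose and 4 fell in males, with a median of -0.01, and 0 passed in females in edgeR, DESeq2 or limma-voom (1 with an unadjusted p under 0.05). Psap, which gives the saposin activators, had 828, 1002 and 1095 CPM in Ctrlm and 618, 671 and 742 CPM in cKOm, with no overlap (-0.54, adjusted p 8.14e-05). Its female difference was -0.08 and its interaction -0.46 (adjusted p 0.0323), a call kept in 4 of 7 other settings and 14 of 24 fits with 1 kidney left out. Glb1, a galactosidase, had 109.1, 144 and 163 CPM in Ctrlm and 94.7, 100.2 and 106 CPM in cKOm, below every Ctrlm kidney (-0.48, adjusted p 0.000774), beside 0.17 in females and an interaction of -0.65 (adjusted p 0.00272). Hexa, a lysosomal enzyme gene, rose (0.40, adjusted p 0.0174, 5 of 6 above every Ctrlm kidney). The calls of Psap and Glb1 in males were kept in all 9 other settings and all 24 fits with 1 kidney left out, and that of Hexa in 8 and 21.

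Relatives of Lrp2 were read as well. Lrp8 had 2.03, 2.94 and 3.95 CPM in Ctrlm, 5.55, 8.01 and 9.42 CPM in cKOm, 5.91, 8.75 and 14.5 CPM in Ctrlf, and 9.06, 11.7 and 15.4 CPM in cKOf. The male groups did not overlap (1.42, adjusted p 2.38e-05), the female difference was 0.37 (adjusted p 0.339), and the interaction was 1.05 (adjusted p 0.0356). That interaction call was kept in 5 of 7 other settings and in 13 of 24 fits with 1 kidney left out. Lrp3 rose by less in males (0.33, adjusted p 0.0252, higher in 6 of 6), and its call was kept in 7 of 9 other settings and 20 of 24 fits with 1 kidney left out.

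Of 12 genes of ligand and vitamin handling, 0 rose and 3 fell in males, with a median of -0.29. Selenop, the selenium carrier that megalin takes up, had 2640.4, 3296 and 3893 CPM in Ctrlm and 2048, 2181 and 2295 CPM in cKOm, with no overlap (-0.61, adjusted p 3.13e-05). In females all 6 cKOf kidneys lay above the Ctrlf median (0.22, adjusted p 0.186), and the interaction was -0.83 (adjusted p 0.000179). Cyp27b1, which makes the active form of vitamin D, had 3.07, 5.34 and 15.5 CPM in Ctrlm and 0.718, 1.94 and 4.03 CPM in cKOm, with 5 of 6 below every Ctrlm kidney (-1.64, adjusted p 0.0118). Its call was lost without Ctrlm replicate 3 (adjusted p 0.0634) and with the hepatocyte covariate (0.126), and its value ran from -1.91 to -1.19 with 1 kidney left out. Rbp4, the retinol carrier, had 1.14, 6.83 and 12.0 CPM in Ctrlm and 0.268, 0.574 and 5.96 CPM in cKOm (-2.19, adjusted p 0.0329, 5 of 6 below every Ctrlm kidney). The Rbp4 call was lost in 8 of 24 fits with 1 kidney left out (values from -3.63 to -1.91), with each sex alone, and with the hepatocyte covariate (adjusted p 0.223).

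Of 13 partners of Pdzk1, 1 rose and 4 fell in males, with a median of -0.21. Slc22a12, a urate transporter, had 677, 799.7 and 946 CPM in Ctrlm and 321, 370.2 and 476 CPM in cKOm, with no overlap (-1.03, adjusted p 3.33e-07), and its interaction was -0.98 (adjusted p 0.00027). Slc34a1, a phosphate transporter, fell by 0.33 (adjusted p 0.00778, lower in 6 of 6) and Slc17a1, another anion transporter, fell by 0.34 (adjusted p 0.00446, lower in 6 of 6), with an interaction of -0.45 for Slc17a1 (adjusted p 0.0165). The peptide transporter Slc15a2 rose in males (0.50, adjusted p 0.0241, 5 of 6 above every Ctrlm kidney), with an interaction of 0.80 (adjusted p 0.0166). The male calls of Slc34a1 (adjusted p 0.0838) and Slc15a2 were lost with the hepatocyte covariate, and that of Slc15a2 also in 5 of 24 fits with 1 kidney left out (adjusted p up to 0.0731). Of 10 transcription factors of the proximal tubule, 0 passed in males or females in edgeR, limma-voom or DESeq2, with 4 unadjusted p under 0.05 in males and 1 in females, and a male median of 0.11.

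Markers of cell types were read beside these results. The summed level of 6 markers of proximal tubule segments S1 and S2 was 5803, 6149 and 6993 CPM in Ctrlm and 5183, 5468 and 5827 CPM in cKOm, with 5 of 6 cKOm kidneys below every Ctrlm kidney. Of these 6 markers 2 fell in males and 0 rose, and the most abundant was Slc34a1. Their median log2 fold change was 0.0029, with 3 positive and 3 negative values, so the lower sum does not stand for all 6. The sum of 6 markers of segment S3 was 3610, 4727 and 5642 CPM in Ctrlm and 1281, 1598 and 1957 CPM in cKOm, with no overlap, and it was 1073, 1293 and 1358 CPM in Ctrlf and 1084, 1139 and 1346 CPM in cKOf. Of the S3 markers 4 of 6 fell in males, and the most abundant was Acy3 (-1.62, adjusted p 1.11e-08, lower in 6 of 6). These 4 were higher in Ctrlm than in Ctrlf by the test, while the other 2 were lower there and were not called in males, so this sum does not stand for all 6 either. The share of these changes in the values of Lrp2, Dab2 and Lrpap1 was not tested.

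A sum of 10 hepatocyte markers was 126, 688 and 972 CPM in Ctrlm, 138, 169 and 547 CPM in cKOm, 92.5, 109 and 137 CPM in Ctrlf and 66.0, 99.0 and 149 CPM in cKOf. Of the 10, 3 fell and 1 rose in males, and the most abundant was Alb at 15.1 to 662 CPM in Ctrlm. The highest cKOm sum was that of replicate 4, and the other cKOm kidneys had 138 to 192 CPM. With 1 kidney left out the number called ran from 1 to 6, and the Alb call was lost in 8 of 24 fits and in 4 of 9 other settings. With the mean log2 CPM of the 10 markers, not their sum, as a covariate, Lrp2 was at -0.38 (adjusted p 0.0269) in males. Dab2 was at 0.44 (adjusted p 0.00661) in that fit, while Lrpap1 at -0.27 (adjusted p 0.186) was no longer called.

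Sums of 5 markers each were 3457 to 4453 CPM in Ctrlm and 4131 to 4843 CPM in cKOm for the thick ascending limb (most abundant Umod, 1 rose), and 1245 to 2369 and 1908 to 2415 CPM for the distal convoluted tubule (Slc12a3, 0 called). For intercalated cells they were 230 to 257 CPM in Ctrlm and 261 to 328 CPM in cKOm, with no overlap (Atp6v1b1, 2 rose and 1 fell). Principal cells had 256 to 299 and 264 to 339.9 CPM (Hsd11b2, 0 called) and podocytes 425 to 539 and 509 to 535 CPM (Podxl, 0 called). Endothelium had 288 to 385 and 288 to 348 CPM (Kdr, 0 called), macrophages 86.7 to 129 and 67.4 to 94.5 CPM (Csf1r, 1 fell), and fibroblasts and pericytes 171 to 262 and 171 to 212 CPM (Pdgfra, 0 called). Lymphocyte markers summed to 1.09 to 3.80 and 1.22 to 2.31 CPM, and the only marker of the list tested was Cd3e. Every marker of these lists had a count in some kidney, and every tubule marker had a count in all 24. In edgeR the lists with 0 calls had 1 (distal convoluted tubule), 2 (principal cells), 1 (podocytes), 2 (endothelium), 3 (fibroblasts and pericytes) and 0 (lymphocytes) markers with an unadjusted p under 0.05. In DESeq2, 1 endothelial marker was called and 0 of the others, and limma-voom called 0 in these lists. The Csf1r call was lost in 7 of 24 fits with 1 kidney left out (adjusted p up to 0.107) and with the hepatocyte covariate (0.254), and the podocyte count was 1 without cKOf replicate 6.

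In the annotation of GRCm38, Lrp2 lies on chromosome 2 (69424340 to 69586065, minus strand) and Cubn on the same chromosome (13276338 to 13491813, minus). Dab2 lies on chromosome 15 (6299788 to 6440712, plus), Lrpap1 on chromosome 5 (35091501 to 35105766, minus) and Amn on chromosome 12 (111271095 to 111276426, plus). Pdzk1 lies on chromosome 3 (96829284 to 96870926, plus), and Clcn5 (7153810 to 7319358, minus) and Ocrl (47912387 to 47965868, plus) lie on chromosome X. Exons of Pdzk1 share 1333 bases with Gpr89 on the other strand, which had a mean of 26.5 CPM and was not called in males (-0.07) or females. Cubn shares 368 exon bases with Gm13270 on the other strand, at a mean of 0.995 CPM. The library kit kept the strand, but the sources do not say how the strand was used in counting.

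The promoter table of RefSeq (build GRCm38.p6; 250 bases before to 50 after each start) held 11 entries for all 8 genes. Because Lrp2 and Lrpap1 fell and Dab2 rose in males, their promoters are shown as read on the strand of the gene. The letters GTTAAT (core of an HNF1 site), AGGTCA (core of a nuclear receptor site) and TATAAA (a basal promoter box) were searched on both strands as exact matches. Of all 32851 promoters, 7.1% held GTTAAT, 16.3% AGGTCA and 13.6% TATAAA, and among the 11 each was found in 1: GTTAAT in a Dab2 promoter, AGGTCA in a Pdzk1 promoter and TATAAA in a Clcn5 promoter. Dab2 has another entry (chr15:6299539-6299838, plus) that held none of these letters and is not shown. Capitals mark the match, which is a description of these letters only, and the Lrp2 (chr2:69585980-69586279, minus), Lrpap1 (chr5:35105650-35105949, minus) and Dab2 (chr15:6386498-6386797, plus) windows follow.
Lrp2 promoter: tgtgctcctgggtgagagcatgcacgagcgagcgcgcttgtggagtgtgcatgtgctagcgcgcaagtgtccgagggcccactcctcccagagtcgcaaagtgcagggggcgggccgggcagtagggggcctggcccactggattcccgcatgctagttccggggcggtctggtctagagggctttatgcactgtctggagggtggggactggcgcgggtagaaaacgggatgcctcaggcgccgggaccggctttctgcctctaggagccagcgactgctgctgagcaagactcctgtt
Lrpap1 promoter: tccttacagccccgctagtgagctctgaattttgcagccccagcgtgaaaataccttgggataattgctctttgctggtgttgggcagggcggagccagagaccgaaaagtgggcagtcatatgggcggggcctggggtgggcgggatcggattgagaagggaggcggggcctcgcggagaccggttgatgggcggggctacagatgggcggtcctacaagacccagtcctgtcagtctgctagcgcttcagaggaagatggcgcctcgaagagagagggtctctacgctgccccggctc
Dab2 promoter: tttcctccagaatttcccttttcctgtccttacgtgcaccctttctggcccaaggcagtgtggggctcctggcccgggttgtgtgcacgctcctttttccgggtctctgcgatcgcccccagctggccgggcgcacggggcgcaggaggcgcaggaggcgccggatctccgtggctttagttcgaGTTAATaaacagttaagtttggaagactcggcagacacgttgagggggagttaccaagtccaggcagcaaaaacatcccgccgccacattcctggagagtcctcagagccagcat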

How the data were processed

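RNA of 24 whole kidneys was measured with a stranded mRNA kit. The authors deposited 1 file per kidney of raw counts per gene, without normalization, made with cutadapt 1.8, STAR 2.5.3a and HTSeq 0.9.1 on GRCm38. The 5 lines of reads not counted on a gene were set aside. Groups came from the labels, and replicate numbers were not treated as pairs in the main fit (r of matched numbers from -0.199 to 0.118). Without r of unmatched numbers beside it, this range cannot exclude pairing. A fit with a replicate block is among the other settings. Replicates differed by more than counting error (chi-square per degree of freedom 9.24 to 91.1 over 60 pairs), so errors come from the spread between mice. Of 55335 genes, 55154 were found in GENCODE M21 and 29671 had a count.

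Genes that reached 1 CPM in any kidney (16092) were fitted in edgeR 4.0.16 (R 4.3.3) with TMM scaling, 1 model of 4 groups and two-sided quasi-likelihood tests. The contrasts were cKO against Ctrl in each sex, their interaction, and males against females in each genotype. P values were adjusted by Benjamini-Hochberg over both genotype contrasts together, over both sex contrasts together and over the interaction alone, with a threshold of 0.05. The genotype and sex contrasts share groups. Log2 CPM used a prior count of 2, and the standard error is the log2 fold change over the root of F. The procedure was tested on simulated data.

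Other settings were limma-voom (limma 3.58.1), DESeq2 1.42.0, RLE scaling, no filter and 1 CPM in at least 6 kidneys. Further ones were each sex alone, adjustment within each sex, a replicate block and the mean log2 CPM of the hepatocyte markers as a covariate. Lengths from the longest transcript and fits with each kidney left out were also used. Correlations within groups were repeated without the libraries that stood apart, chosen after seeing the data. The members and lists were chosen with earlier results of these data known. Genes named are the members, Pex5, up to 3 called genes per direction, list and sex with the lowest p, the most abundant marker of each list, and the genes most correlated with each member (5 for Lrp2). A protein table was not available, so planned protein motifs were left out. Results of some listed genes, and the counts for relatives of Lrp2, are not printed. Tables were made with Python 3.11.15, numpy 2.4.6 and pandas 2.3.3, and plots with matplotlib 3.10.9. The records give ZT9 for tissue collection and, in another field, ZT3 for experiments.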

Additional observations from a re-analysis of the deposited data

Results flagged for a closer look

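In 44 groups of 6 kidneys, 7 held a value far from the others by Dixon's ratio, and chance gives such a value in about 1 in 20 groups. In cKOf replicate 6, Amn was at 75.3 CPM (others 40.9 to 52.0), Clcn5 at 71.1 CPM (others 115 to 131) and reads aligned to several places at 30.48% (others 27.4 to 28.41%). In cKOm replicate 6, Pdzk1 was at 1093.5 CPM (others 1272 to 1377). In cKOm replicate 4, 58.45% of reads were counted on a gene and 34.81% aligned to several places. Ctrlf replicate 5 had 27401081 counted reads.

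The test of the interaction in edgeR passed for some genes outside the members. The interaction on the log2 scale was -0.46 for Psap, -0.65 for Glb1, 1.05 for Lrp8, -0.83 for Selenop, 0.80 for Slc15a2, -0.98 for Slc22a12, -0.45 for Slc17a1 and -1.62 for Acy3. For Xist it was -3.53, at 0.313 to 2.72 CPM in Ctrlm, up to 0.352 CPM in cKOm and 392 to 1062 CPM in Ctrlf. The interaction calls of Psap and Lrp8 were kept in 14 and 13 of 24 fits with 1 kidney left out, with an adjusted p of up to 0.0625 and 0.0693 there. That of Psap was kept in 4 of 7 other settings and lost with no filter, the replicate block and the hepatocyte covariate (adjusted p up to 0.0761). That of Lrp8 was kept in 5 of 7 and lost in limma-voom and with the replicate block (adjusted p up to 0.0778).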

How the results depend on the processing

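In males Lrpap1 was at -0.27 in limma-voom (adjusted p 0.0584), -0.31 with no filter (0.0584), -0.31 with each sex alone (0.0620), -0.28 with the replicate block (0.0898) and -0.27 with the hepatocyte covariate (0.186), none of them past the threshold. Its adjusted p ran from 0.00929 to 0.186 over 9 settings. Lrp2 in males was at -0.35 with no filter (adjusted p 0.0540, range 0.00187 to 0.0540), where 1 member was called in place of 3. More genes enter the adjustment there. The hepatocyte covariate called 869 genes in males, beside 1456, and adjustment within each sex called 43 in females, beside 137. Males had 667 higher and 789 lower genes, beside 443 and 797 with no filter. DESeq2 called 574 genes and 1 member for the interaction, with Dab2 at 0.38 (adjusted p 0.0231). Between cKO groups Lrpap1 was at -0.26 with no filter (adjusted p 0.0823) and at -0.26 with the replicate block (0.0649), where adjusted p ran up to 0.0823. Values near 0 that no setting called changed sign: Cubn interaction 0.014 in limma-voom, the sex difference of Lrpap1 in controls at 0.0088 in DESeq2, 0.0089 with RLE and 0.0067 with no filter, and Acy3 in females at 0.011 with the hepatocyte covariate. The cause was not tested.

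With each kidney left out in turn, 1 to 3 members were called in males (1 without cKOm replicate 3), with Lrp2 at -0.37 to -0.29 (not called without cKOm replicate 3, adjusted p 0.0605) and Lrpap1 at -0.35 to -0.24. The Lrpap1 call was lost without any single cKOm kidney, without Ctrlm replicate 1, 3 or 5, Ctrlf replicate 2 or 6, or cKOf replicate 2, 3 or 4 (adjusted p up to 0.117). Between cKO groups Lrpap1 ran from -0.29 to -0.25 and was lost without cKOf replicate 3, 4, 5 or 6 or cKOm replicate 1, 5 or 6 (adjusted p up to 0.0711). For the interaction 0 to 1 members were called, with Dab2 at 0.35 to 0.43 and called without Ctrlf replicate 5 or Ctrlm replicate 6. Dab2 in the control sex difference ran from -0.22 to -0.15 and was called without Ctrlf replicate 5. Genes separating in females numbered 90 to 188 (more than 1.5 times the 90 without Ctrlf replicate 2, 4 or 5 or cKOf replicate 1, 5 or 6). Ratios to Lrp2 separating in females numbered 1 to 2, with 2 without Ctrlf replicate 4. Values near 0 that changed sign were Amn in males (-0.21 to 0.019), Clcn5 in females (-0.084 to 0.13), Ocrl in females (-0.0014 to 0.13), Slc22a12 in females (-0.090 to 0.0067), Acy3 in females (-0.071 to 0.039), the Cubn interaction (-0.091 to 0.069), Lrpap1 in the control sex difference (-0.061 to 0.048), and Amn (-0.20 to 0.0052) and Ocrl (-0.013 to 0.12) between cKO groups.

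Whole kidneys do not show which cells hold the RNA, and RNA does not give protein, its place in the cell or uptake. With 6 kidneys per group, differences in females that missed the threshold are not shown to be absent.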
